A study of Mus musculus with 4 samples.

Results

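Lines 1 and 2 of the embryonic stem cell (ESC) lines made by nuclear transfer (NT) were compared with the induced pluripotent stem cell (iPSC) clone that had donated their nuclei. The comparison used 3 of the 4 mouse arrays of the series, with 1 array for the clone and 1 for each line. Line 3 was left out because its chromosome 8 genes stood higher than on the other arrays, and its values are given only beside those of lines 1 and 2. A gene was taken into the set described here when both lines lay on the same side of the clone and the gap from the clone to the nearer line was larger than the gap between the lines. Of 18193 genes, 7176 (39.4%) met this rule. The measured values themselves chose these genes, so their levels are a description and no test was made on them as a set.

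The clone had been reprogrammed from tail-tip fibroblasts with adenoviral vectors, which deliver the reprogramming factors without integrating as retroviruses do. The NT-ESC lines came from cloned blastocysts grown after clone nuclei had been placed in eggs, and all groups therefore carry the genome of the same iPSC clone. All cells grew with 15% serum and LIF on irradiated embryonic fibroblasts, and were preplated for 45 minutes before RNA isolation to take those feeders away. The clone is a single clone with 1 array, and in the labels the lines are subclones, with no word on whether each was derived separately. The sources used here do not give strain, sex, passage or the age of the donor animal.

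An iPSC has regained the transcription factor network of the early embryo through forced expression of a few factors, whereas the egg resets a nucleus with its own maternal proteins before the embryo forms its inner cell mass. Mouse ESCs in serum and LIF fluctuate between a naive state, held by factors such as Esrrb, Tbx3 and Tfcp2l1, and a primed state that resembles the later epiblast and expresses Pou3f1, Lef1 and de novo DNA methyltransferases. Simple epithelial keratins, oxygen-responsive genes and sterol synthesis genes also vary among pluripotent cultures.

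Deposited values were turned into ratios of a probe set's log intensity to the array mean and multiplied by an assumed mean of 7, so levels and differences below are on a log2 scale that carries this assumption. An assumed mean of 6 makes each difference 14.3% smaller, and a mean that puts the top signal at the 16-bit limit makes it 12.3% greater. Neither the rule nor the p-values of limma change with it. A gene is called bright where its highest value on the 3 arrays was at 6.83 or more, which is the median over all probe sets, and 12071 genes were bright. Levels are not compared between genes, since each probe set has its own response.

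The simple epithelial keratins Krt8 and Krt18 were the bright genes farthest above the clone in both lines, and Krt19 was among the 6 with the largest gaps. Krt8 stood at 8.39 in the clone, 9.62 in line 1 and 9.35 in line 2. Krt18, which pairs with Krt8 in the same filaments, stood at 8.30 in the clone, 9.37 in line 1 and 9.08 in line 2. Krt19 stood at 7.08, 7.99 and 7.67 in the same order. Both lines were thus above the clone for each keratin, by at least 0.96 for Krt8, 0.78 for Krt18 and 0.59 for Krt19, while the lines differed from each other by 0.26, 0.28 and 0.31. Line 3 stood at 8.41 for Krt8, 8.01 for Krt18 and 7.25 for Krt19, near or below the clone for the first pair.

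Krt8 and Krt18 lie beside each other on chromosome 15, with 2 long noncoding RNA genes between them in the RefSeq gene order, and Krt19 lies on chromosome 11. The 250 bases before the annotated starts of Krt8 and Krt18 are shown because these neighbouring genes had the largest gaps. They come from RefSeq (GRCm38.p6), 5′ to 3′ on the strand of the gene, with any match to the TATA-like letters TATAA (on either strand) in capitals.
Krt8, chr15:102004343-102004592, minus strand: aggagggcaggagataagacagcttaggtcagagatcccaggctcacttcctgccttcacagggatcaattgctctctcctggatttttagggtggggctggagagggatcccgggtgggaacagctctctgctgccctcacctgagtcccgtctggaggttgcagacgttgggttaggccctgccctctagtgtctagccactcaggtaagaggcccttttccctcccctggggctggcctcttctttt
Krt18, chr15:102027966-102028215, plus strand: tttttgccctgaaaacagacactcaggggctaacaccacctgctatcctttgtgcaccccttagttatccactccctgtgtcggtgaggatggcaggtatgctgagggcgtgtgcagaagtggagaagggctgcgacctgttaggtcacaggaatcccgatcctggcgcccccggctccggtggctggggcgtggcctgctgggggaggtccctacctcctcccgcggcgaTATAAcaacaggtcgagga
TATAA was found in the Krt18 window and not in the Krt8 window, and neither held the GC box GGGCGG on either strand. Of 32851 promoter windows of this length, 22.8% hold TATAA and 32.7% hold GGGCGG. No Krt19 sequence is shown.

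Other probe sets of Krt8 gave the same order of arrays. One stood at 8.07 in the clone, 9.31 in line 1 and 9.0 in line 2, and another at 7.73, 8.63 and 8.47. Their type suffix marks probes that may also bind similar transcripts, so keratin pseudogenes could share this signal. A probe set assigned to no single gene (1435789_x_at) stood at 10.92 in the clone against 11.76 and 11.55 in the lines, and it is listed here only by its identifier.

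Of 25 measured genes of epithelial junctions and keratins, 12 lay above the clone in both lines by the rule and 4 below. Over all genes the rule was met upwards by 20.5% and downwards by 18.9%. The list's median level was 8.57, and of all genes at level 8 to 10, 31.1% met it upwards and 13.0% downwards. The list's median difference from the clone was 0.0745 in line 1 and 0.0678 in line 2, against -0.00375 and 0.00506 over all genes, and it was -0.128 in line 3. Tjp3, a tight junction scaffold, stood at 7.32 in the clone, 7.81 in line 1 and 7.85 in line 2. Dsp, the desmosomal plakin, stood at 7.91, 8.24 and 8.41. In the other direction Ocln, a tight junction membrane protein, stood at 7.59 in the clone against 7.38 and 7.40 in the lines. The list therefore held higher and lower genes. Its largest gaps upwards were those of Krt8, Krt18, Krt19, Tjp3 and Dsp, whereas Krt42 stood at 9.95, 9.98 and 9.97 and Krt7, which did not meet the rule, at 5.52, 5.49 and 5.68. Cdh1, E-cadherin, was near the clone at 11.44 against 11.58 and 11.51.

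Keratins 8, 18 and 19 are also trophectoderm genes. Of 20 measured trophectoderm genes 7 met the rule upwards and 2 downwards. The 7 include these keratins, so the count is not separate from the keratin values above. The list's median level was 7.45, and of all genes at level 6 to 8, 14.8% met the rule upwards and 21.9% downwards. Cdx2, the regulator that specifies this lineage, stood at 6.45 in the clone against 6.11 and 6.23 in the lines, below the median level on all 3 arrays. Elf5 stood at 6.30, 6.34 and 6.16, also below that level. Tfap2c, a factor of trophectoderm and germ cells, stood at 8.49 in the clone against 9.25 and 8.97 in the lines, and Eomes at 7.65, 7.99 and 7.83. The 6 trophectoderm markers had a summed linear level of 1.25 times that of the clone in line 1, 1.13 times in line 2 and 1.25 times in line 3. Their part in the keratin values was not tested.

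No gene passed the test between lines 1 and 2 and the clone. Limma called 0.00% of 18193 genes (0 genes) at a Benjamini-Hochberg adjusted p under 0.05, and the smallest adjusted p was 0.607. At an unadjusted p under 0.05, 933 genes (5.13%) had higher and 500 (2.75%) had lower levels in the lines. The fit had 1 residual and 2.09 prior degrees of freedom, so the spread came from the gap between the lines and was lent to the clone array. The p-values cover only the spread between 2 arrays whose cells may not be separate derivations. A property of the clone and a property of its single array cannot be told apart here.

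The rule was met upwards by 3732 genes (20.5%) and downwards by 3444 (18.9%). Among bright genes, 3099 (25.7%) lay above and 1971 (16.3%) below the clone. Most gaps were small: the median gap to the nearer line was 0.118 for the higher and -0.101 for the lower genes. Of bright genes, 217 had a gap of at least 0.3 upwards and 27 downwards, and 18 and 2 had a gap of at least 0.5. At least 1.5-fold apart from the clone in both lines were 6 bright genes upwards (0.0497%), namely Krt8, Krt18, Zdbf2, Zfp934, Zc3hav1 and Krt19, and 1 downwards (0.00828%), Gm9564. This total of 7 was 3 with an assumed mean of 6, 19 with the mean at the 16-bit limit and 0 with the deposited values as given. Many genes lay close to the limit of the rule, with 1398 inside and 1285 outside it by less than 0.02. Among bright genes with a gap of at least 0.3, Fnip1 lay just inside at 7.89 in the clone, 8.49 in line 1 and 8.19 in line 2, and Efhc2 lay just outside at 7.21, 8.17 and 7.68.

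**Figure D1:**
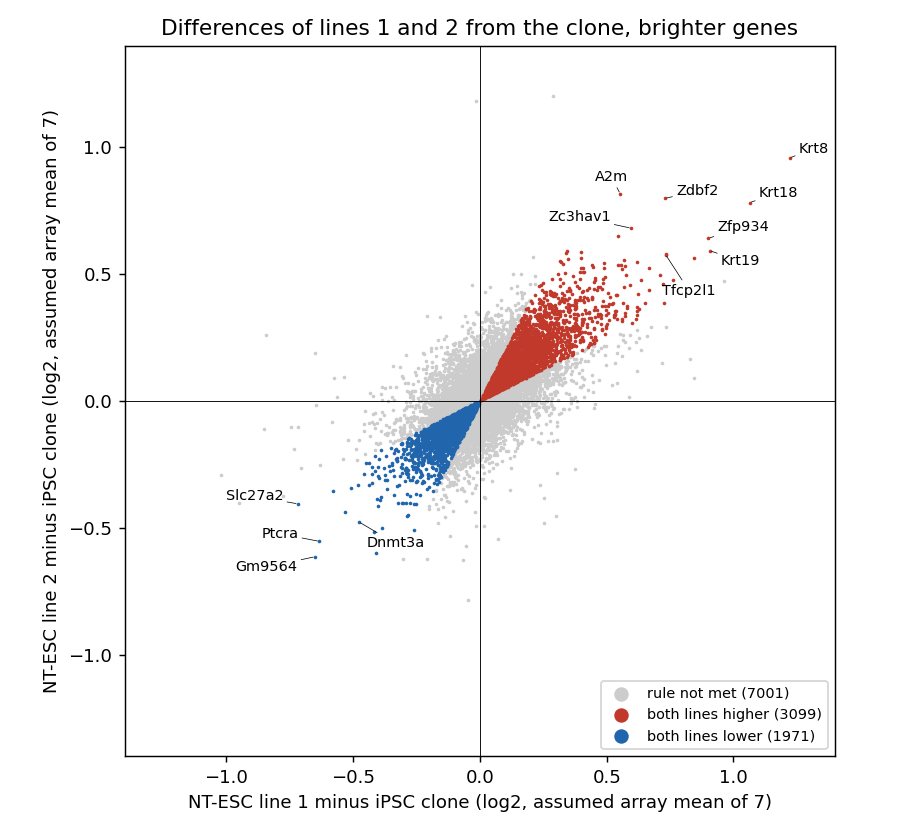
Difference of NT-ESC line 1 (x axis) and line 2 (y axis) from the iPSC clone for 12071 bright genes, on the log2 scale with an assumed array mean of 7; each point is a gene, red where both lines met the rule above the clone (3099), blue below it (1971) and grey where the rule was not met. Krt8 and Krt18 lie farthest to the upper right, and Gm9564 and Ptcra farthest to the lower left of the coloured points.

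The lines were nearly as far from each other as from the clone. The median absolute difference over all genes was 0.0873 between the clone and line 1, 0.0872 between the clone and line 2, and 0.0737 between the lines. Of bright genes, 56 were at least 1.5-fold apart between the clone and line 1, 18 between the clone and line 2, and 20 between the lines. By that count line 2 was no farther from the clone than from line 1, and line 1 had the larger number, with 41 higher and 15 lower than in the clone.

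Direction went with level. Of genes with a mean level under 6, 9.84% met the rule upwards and 24.6% downwards, whereas of genes from 8 to 10 the shares were 31.1% and 13.0%. The median difference in line 1 ran from -0.05 under level 6 to 0.0389 from 8 to 10, and in line 2 from -0.0346 to 0.0463. The ratios on the clone array had an SD of 0.2788, against 0.283 and 0.2817 on the arrays of lines 1 and 2. The 18 probe sets of the hybridization controls bioB, bioC, bioD and cre, which are added to each sample in fixed amounts, were higher than in the clone by 0.19 to 0.49 in line 1 and by 0.06 to 0.19 in line 2. After quantile normalization the rule was met upwards by 3182 and downwards by 3751 genes, so which direction held more genes depended on the scaling. All of the 30 genes with the largest gaps met the rule in the same direction after that step.

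**Figure D2:**
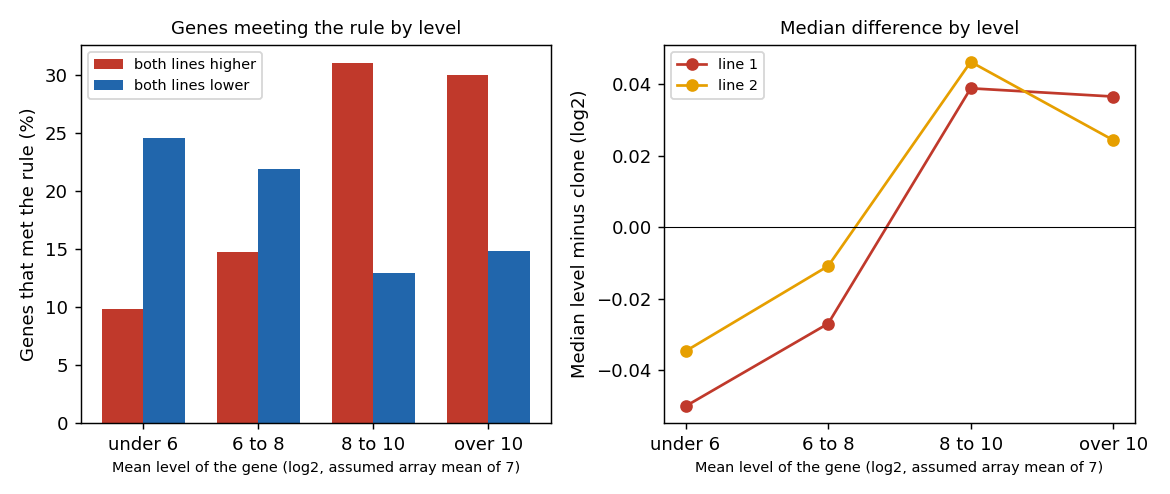
Left, share of genes (%) for which both lines lay above (red) or below (blue) the clone by the rule, in 4 bands of mean level; right, median difference of line 1 and of line 2 from the clone (log2, assumed array mean of 7) in the same bands. Shares run from 9.84% higher and 24.6% lower under level 6 to 30% higher and 14.9% lower over level 10.

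Other probe sets of the same genes, which the rule had not used, measure the same RNA on the same arrays. For genes above the clone with a gap of at least 0.3, both lines were above the clone in 125 of 194 bright other probe sets (64.4%) and below it in 19 (9.79%). For the corresponding lower genes both lines were below in 12 of 15 (80.0%). For genes that did not meet the rule the shares were 35.2% above and 32.7% below, over 4613 probe sets.

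The other 12 of the 15 bright genes with the largest gaps upwards have varied roles. Zdbf2, a paternally expressed imprinted gene, stood at 8.21 in the clone, 8.94 in line 1 and 9.01 in line 2. Zfp934, a zinc finger gene, stood at 7.73, 8.64 and 8.38, and its other probe set at 6.60, 7.15 and 7.13. Zc3hav1, an antiviral protein that binds CpG-rich RNA, stood at 8.22, 8.81 and 8.90. Its other bright probe set was at 7.48 in the clone, 7.44 in line 1 and 7.47 in line 2, so the Zc3hav1 gap rests on 1 probe set. Tfcp2l1, a naive pluripotency factor downstream of STAT3, stood at 10.11, 10.84 and 10.68.

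The next genes of that group had the lines close together. Aff1, a scaffold of the elongation complex that releases paused RNA polymerase, stood at 8.82 in the clone against 9.39 and 9.38 in the lines. Plcb3, a phospholipase C, stood at 8.82, 9.44 and 9.37, and Lpin1, a phosphatidate phosphatase of lipid synthesis, at 8.12, 8.67 and 8.65. The lines lay within 0.07 of each other for these 3 genes and more than 0.5 from the clone. The other probe sets of Aff1 did not share this, at 7.49, 7.71 and 7.39 and at 7.07, 7.47 and 6.86, with line 2 below the clone in both. Dixdc1, a DIX domain protein of Wnt signalling, stood below the median level in the clone at 6.49 and above it in the lines at 7.04 and 7.02. Its other bright probe set was close to the clone in line 2 (6.71, 7.01 and 6.74), and 2 dim ones had both lines below the clone (6.64, 6.53 and 6.47 for the brighter). The lines were farther apart for A2m, a protease inhibitor, at 8.40, 8.95 and 9.22, and for the receptor Notch4 at 7.60, 8.44 and 8.16. Neither of the other Notch4 probe sets, both below the median level, had both lines above the clone. Gm4274 stood at 6.38, 6.93 and 7.03, under the median level in the clone. Acta1, the actin of skeletal muscle, stood at 7.27, 8.01 and 7.85, and at 7.03 in line 3.

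Downwards, Gm9564 had the largest gap, at 7.23 in the clone against 6.58 in line 1 and 6.61 in line 2, so it reached the median level in the clone alone. Ptcra, the invariant chain of the pre-T-cell receptor, stood at 7.04 in the clone and below the median level in the lines, at 6.41 and 6.49. Dnmt3a, a de novo DNA methyltransferase, stood at 10.50 in the clone and at 10.02 in each line, and line 3 had 10.50. Another probe set of Dnmt3a stood at 10.26, 9.60 and 9.73, and 2 more also had both lines below the clone. A further bright probe set went the other way at 7.39, 7.67 and 7.70, so the probe sets disagreed. Pou3f1, the primed epiblast factor also called Oct6, stood at 8.25, 7.86 and 7.75.

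Slc27a2, a fatty acid transporter and acyl-CoA synthetase, stood at 9.06 in the clone, 8.34 in line 1 and 8.65 in line 2, and Enpp3, an ectonucleotidase, at 9.37, 8.84 and 8.93. Ppp1r1a, an inhibitor of protein phosphatase 1, stood at 9.38, 8.98 and 8.97, and Lmo4, a LIM-domain cofactor, at 8.48, 8.09 and 8.10. For Ppp1r1a and Lmo4 the lines lay within 0.01 of each other. Rpl39l, a testis-enriched copy of a ribosomal protein gene, stood at 10.23, 9.65 and 9.87, and is uncertain because similar copies may share its probes. Lrp2, the endocytic receptor megalin, stood at 7.70 in the clone and at 7.31 in each line. Of its other probe sets one had both lines below the clone (7.27, 6.87 and 6.93) and one did not (7.26, 7.28 and 7.24). Shbg, Gast, Clca3b and the X-linked Pir and 4933428M09Rik made up the rest, with gaps of 0.34 to 0.42 to the nearer line.

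**Figure D3:**
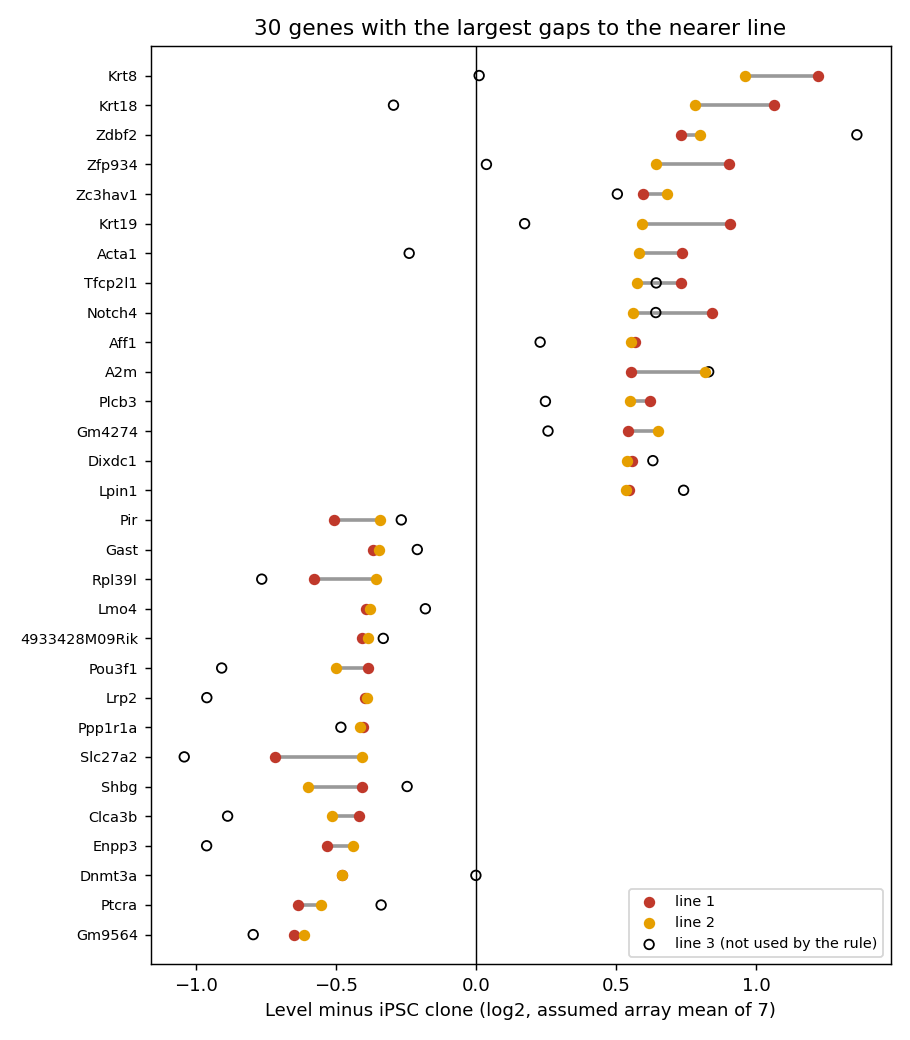
Level minus iPSC clone (x axis, log2, assumed array mean of 7) for the 15 bright genes with the largest gaps in each direction; red and orange points are lines 1 and 2, joined by a grey bar, and open circles are line 3, which the rule did not use. Line 3 lies at the clone for Krt8 (0.01) and beyond lines 1 and 2 for Zdbf2 (1.36).

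Line 3, set beside these 30 genes, shared the same clone array, so its differences are not independent of theirs. Of the 15 higher genes, line 3 was at least as far from the clone as the nearer line for 6, between the clone and that line for 7 and on the other side for 2, Krt18 and Acta1. Of the 15 lower genes the numbers were 8, 6 and 1. When line 3 was kept in the NT-ESC group, 13 of the 30 still met the rule, and 1318 genes in all met it upwards and 1383 downwards. Dnmt3a, Krt8 and Zfp934 were among the genes for which lines 1 and 2 stood apart from the clone while line 3 did not, with line 3 at 10.50, 8.41 and 7.77.

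Oxygen-responsive genes had the highest share of members above the clone. HIF transcription factors drive this programme, and its targets include the prolyl hydroxylases that lower HIF again. Of 19 measured hypoxia genes (median level 9.44) 14 met the rule upwards and 0 downwards. Of all genes at level 8 to 10, 31.1% met it upwards and 13.0% downwards. The list's median difference was 0.216 in line 1 and 0.283 in line 2. Its median difference over both lines was 0.225, and 0.189 after quantile normalization. Ero1a, an oxidase that forms disulfide bonds in the endoplasmic reticulum, stood at 10.24 in the clone, 10.64 in line 1 and 10.77 in line 2. Ak4, a mitochondrial adenylate kinase, stood at 9.65, 10.04 and 10.13. Egln1, the main oxygen-sensing prolyl hydroxylase, stood at 9.02, 9.33 and 9.35. Both lines lay above the clone by at least 0.3 for each of the 3. The other probe sets of Ero1a and Egln1 had both lines above the clone, but those of Ak4 disagreed, with 9.34, 9.64 and 9.76 for one and 7.50, 7.44 and 7.45 for another. Hif1a itself stood at 10.59, 10.71 and 10.60, and Vegfa at 8.95, 9.13 and 8.99, and neither met the rule.

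The HIF binding motif has the core ACGTG or GCGTG. Windows of Ero1a and Egln1, genes with large gaps in this list, are shown with every ACGTG or GCGTG on either strand in capitals (RefSeq, GRCm38.p6).
Ero1a, chr14:45318573-45318822, minus strand: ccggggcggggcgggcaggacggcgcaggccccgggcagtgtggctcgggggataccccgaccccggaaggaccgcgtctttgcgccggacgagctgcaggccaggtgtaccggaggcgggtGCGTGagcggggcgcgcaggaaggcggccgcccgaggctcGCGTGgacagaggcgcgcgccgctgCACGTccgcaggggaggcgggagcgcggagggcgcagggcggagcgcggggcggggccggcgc
Egln1, chr8:124949255-124949504, minus strand: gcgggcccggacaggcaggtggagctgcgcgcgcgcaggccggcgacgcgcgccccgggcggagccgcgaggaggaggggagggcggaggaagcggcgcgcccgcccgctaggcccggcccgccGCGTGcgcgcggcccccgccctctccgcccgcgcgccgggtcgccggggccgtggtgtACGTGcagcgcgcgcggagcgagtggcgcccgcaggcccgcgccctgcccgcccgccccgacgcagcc
The Ero1a window held 3 such matches and the Egln1 window 2. ACGTG was found for 14 of the 18 list genes with a promoter entry and GCGTG for 14, against 16.6% and 28.2% of all windows. Of the 13 that met the rule upwards, 10 held ACGTG and 11 GCGTG, and of the 5 that did not, 4 and 3. The list was not matched to the other promoters on base composition, a gene with several starts counted once if any window matched, and a match is not a binding site.

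Glycolysis genes, many of which are also HIF targets, lay above the clone in part. Of 18 measured genes, 10 met the rule upwards and 1 downwards, with medians of 0.0963 in line 1 and 0.261 in line 2, and of 0.161 over both lines after quantile normalization. Pfkp, the platelet form of the rate-setting phosphofructokinase, stood at 10.81 in the clone, 11.25 in line 1 and 11.35 in line 2. Of its other probe sets one had both lines above the clone (8.53, 8.76 and 8.95) and one had line 2 below it (10.07, 10.33 and 10.03). Aldoc, an aldolase, stood at 9.10, 9.49 and 9.54, and Pfkfb3, which makes the activator of phosphofructokinase, at 7.30, 7.72 and 7.66. The hexokinase Hk2 stood at 11.55, 11.87 and 11.95. The final steps did not share these gaps, with Pkm at 13.28, 13.27 and 13.30 and Ldha at 13.02 in the clone and 13.01 in each line, by which narrow margin Ldha met the rule downwards. Pdk1 and Slc2a1 belong to both lists. Of 29 genes of oxidative phosphorylation, also at a median level of 11.6, 5 met the rule upwards and 7 downwards. Their median difference over both lines was 0.00345, and -0.0401 after quantile normalization.

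Most sterol synthesis genes were above the clone in both lines. These enzymes are induced together by SREBP2 when cell cholesterol is low. Of 17 measured genes (median level 9.28) 11 met the rule upwards and 0 downwards. Of all genes at level 8 to 10, 31.1% met it upwards and 13.0% downwards. The list's median differences were 0.167 in line 1, 0.113 in line 2 and 0.0207 in line 3. Quantile normalization lowered the median difference over lines 1 and 2 from 0.148 to 0.0947. Hmgcs1, which makes HMG-CoA, stood at 10.99 in the clone against 11.46 and 11.44 in the lines. Pmvk, phosphomevalonate kinase, stood at 8.79, 9.08 and 9.15, and Insig1, which retains the SREBP complex in the endoplasmic reticulum, at 9.0, 9.40 and 9.20. The squalene epoxidase Sqle was near the clone in both lines, at 10.13, 10.15 and 10.19, and Fdps, Nsdhl and Mvd had line 2 below the clone.

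Some chaperones of the endoplasmic reticulum, which are targets of the unfolded protein response, also lay above the clone. Of 18 measured genes (median level 9.87) 8 met the rule upwards and 0 downwards. Of all genes at level 8 to 10, 31.1% met it upwards and 13.0% downwards. The list's median differences were 0.114 in line 1, 0.0976 in line 2 and -0.0696 in line 3. Over lines 1 and 2 the median difference was 0.0836 after quantile normalization against 0.128 before. That step left 8 genes above and put 3 below. Hspa5, the chaperone BiP, stood at 11.83 in the clone, 12.10 in line 1 and 12.11 in line 2, with 11.88 in line 3. One of its other probe sets had both lines above the clone (10.21, 10.58 and 10.43) and one did not (10.28, 10.22 and 10.32). Hsp90b1 stood at 11.31, 11.55 and 11.52, and the cochaperone Dnajc3 at 8.16, 8.43 and 8.45. Herpud1, a degradation factor of the same programme, stood at 8.77 on all 3 arrays, and Hyou1, Pdia3 and Dnajb9 had the lines on opposite sides of the clone.

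The windows of Hspa5 and Hmgcs1, the genes with the largest gap of their lists, are shown with the matches to a motif of each list in capitals (RefSeq, GRCm38.p6). The endoplasmic reticulum stress element was searched as CCAAT and CCACG with 9 bases of any kind between them, and a sterol response element as TCACNCCAC, on both strands.
Hspa5, chr2:34771840-34772089, plus strand: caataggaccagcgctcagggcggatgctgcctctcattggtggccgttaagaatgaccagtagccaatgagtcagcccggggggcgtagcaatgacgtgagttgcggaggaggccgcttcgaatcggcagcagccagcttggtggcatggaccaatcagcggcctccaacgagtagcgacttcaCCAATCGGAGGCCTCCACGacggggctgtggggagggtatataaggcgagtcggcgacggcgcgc
Hmgcs1, chr13:119690101-119690350, plus strand: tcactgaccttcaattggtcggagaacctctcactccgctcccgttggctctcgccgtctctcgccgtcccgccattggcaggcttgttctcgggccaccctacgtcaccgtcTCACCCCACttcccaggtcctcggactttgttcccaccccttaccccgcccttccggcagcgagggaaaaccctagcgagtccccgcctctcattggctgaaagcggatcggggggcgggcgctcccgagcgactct
The stress element was found for 8 of 16 chaperone list genes with a promoter entry and in 0.113% of all windows. It was present for 6 of the 8 list genes that met the rule upwards and have an entry, and for 2 of the 8 that did not. TCACNCCAC was found for 1 of 13 sterol genes, Hmgcs1, and in 1.05% of all windows. The chaperone list holds targets of the unfolded protein response, and neither list was matched to the other promoters on base composition. A gene with several starts counted once if any window matched, and a match is not a binding site. The split of the chaperone list by the rule is a description and was not tested.

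**Figure D4:**
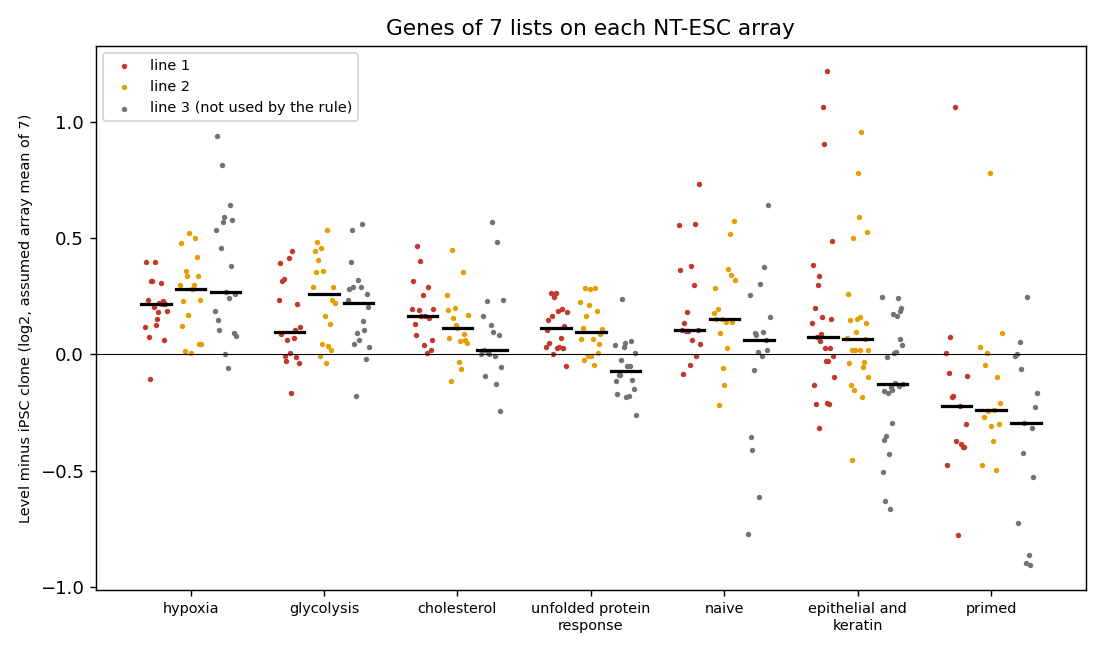
Level minus iPSC clone (y axis, log2, assumed array mean of 7) of each measured gene of 7 lists, for line 1 (red), line 2 (orange) and line 3 (grey, not used by the rule); black bars are medians. The hypoxia medians are 0.216, 0.283 and 0.268, and the unfolded protein response medians are 0.114, 0.0976 and -0.0696.

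Core pluripotency factors were close to the clone. Pou5f1 (Oct4) stood at 12.22 in the clone, 12.25 in line 1 and 12.21 in line 2, and Sox2 at 12.40, 12.62 and 12.46. Nanog stood at 12.05 in the clone and at 12.28 in each line, and at 12.04 in line 3. Of 17 measured core genes (median level 11.4) 3 met the rule upwards and 5 downwards. Of all genes over level 10, 30% met it upwards and 14.9% downwards. The core list thus held more lower than higher genes, the reverse of all genes at that level. Its median difference over both lines was 0.00849, or -0.0105 after quantile normalization. Dppa2, a chromatin-binding pluripotency gene, stood at 11.43 in the clone and at 11.20 in each line, and Mycn at 11.10, 10.80 and 10.87. Myc stood at 9.0, 8.83 and 8.65 and did not meet the rule. All 8 markers of ESC identity were above the median level on all 3 arrays. So were 9 of 10 fibroblast markers, so standing above this level does not by itself identify the cell type.

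Several naive state factors lay above the clone and several primed genes below it. Of 17 naive genes (median level 10.2) 8 met the rule upwards and 0 downwards. Of all genes over level 10, 30% met it upwards and 14.9% downwards. The naive list's median difference was 0.106 in line 1 and 0.152 in line 2, and 0.128 over both after quantile normalization. Tbx3, a T-box factor of the naive network, stood at 9.12 in the clone, 9.68 in line 1 and 9.64 in line 2, and 3 bright other probe sets of Tbx3 had both lines above the clone as well. Prdm14, a repressor of FGF signalling and DNA methyltransferases, stood at 8.67, 8.97 and 9.03. Esrrb stood at 11.01, 11.38 and 11.30, but its other probe sets were at 9.71, 9.89 and 9.46, with line 2 below the clone, and at 10.16, 10.25 and 10.17. Line 2 was below the clone also for Gbx2 (9.62, 9.76 and 9.40) and Klf5 (11.85, 11.95 and 11.80), and Klf4 was above its clone level by 0.18 and 0.15 in lines 1 and 2. Dppa3 was higher in line 1 at 9.88 than in the clone at 9.32 or line 2 at 9.50, and did not meet the rule. Tfcp2l1, Klf4 and Gbx2 belong also to the LIF and STAT3 list (median level 9.58), of which 7 of 16 genes met the rule upwards and 1 downwards. Of all genes at level 8 to 10, 31.1% met it upwards and 13.0% downwards. The LIF and STAT3 list had a median difference of 0.112 over both lines. It was 0.0715 after quantile normalization and 0.0272 with the mean of all probe sets of a gene.

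Of 15 measured primed epiblast genes (median level 8.36) 7 met the rule downwards and 1, Krt18, upwards. Of all genes at level 8 to 10, 13.0% met it downwards and 31.1% upwards. The list's median difference was -0.222 in line 1 and -0.241 in line 2, and -0.256 over both after quantile normalization. Beside Dnmt3a and Pou3f1, Lef1, the Wnt effector, stood at 9.66, 9.29 and 9.35, and Sox3 at 7.78, 7.38 and 7.48. Otx2, a regulator of the primed transition, stood at 8.74, 7.97 and 8.37. Otx2 missed the rule because the lines differed by 0.40, more than the 0.37 from the clone to line 2, and it stood at 8.99 in line 3. Fgf5, the defining marker of the primed epiblast, was below the median level at 5.88, 5.69 and 5.88, and Dnmt3b stood at 11.54, 11.46 and 11.27.

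Signalling genes around these states showed no common direction. Of the FGF and ERK genes 3 of 16 met the rule upwards and 3 downwards, among the latter Spry4, a feedback inhibitor, at 9.63 in the clone, 9.35 in line 1 and 9.18 in line 2, and Egr1 at 10.57, 10.28 and 10.11. Of the Nodal genes 5 of 16 met it upwards and 2 downwards. Smad7, an inhibitory SMAD, stood at 10.77, 11.06 and 11.05, the receptor Acvr1b at 8.59 and 8.90 in each line, and the effector Foxh1 at 9.35, 9.10 and 9.08. Smad6, the inhibitory SMAD of the BMP branch, had a gap of 0.50, at 7.71 in the clone, 8.28 in line 1 and 8.20 in line 2. Of 18 BMP and Id genes 3 met the rule in each direction. The Nodal list had a median level of 8.99 and the BMP and Id list one of 8.16. Of all genes at level 8 to 10, 31.1% met the rule upwards and 13.0% downwards. The FGF and ERK list had a median level of 10, and over that level the shares of all genes were 30% and 14.9%.

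Imprinted genes, whose single active allele can be misread after reprogramming, were spread around the clone. Of 37 measured genes outside the Dlk1-Dio3 cluster, 9 met the rule upwards and 6 downwards, near the shares over all genes, with a median over both lines of 0.0069. Plagl1, a paternally expressed zinc finger factor, stood at 8.41 in the clone, 8.89 in line 1 and 8.87 in line 2, and at 8.38 in line 3. Copg2 stood at 8.56, 9.05 and 8.94. Its neighbour in the imprinted Mest region, Mest, went the other way, from 10.26 in the clone by -0.26 in line 1 and -0.22 in line 2. Phlda2, a maternally expressed restrainer of placental growth, stood at 9.88, 9.40 and 9.55. Paternally expressed genes thus lay on both sides of the clone.

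In the Dlk1-Dio3, X inactivation and Y-linked list 0 of 14 measured genes met the rule upwards and 5 downwards. The lower genes were Rian and the Y-linked Uty, Kdm5d, Usp9y and Sry. The list's median level was 6.87, and of all genes at level 6 to 8, 14.8% met the rule upwards and 21.9% downwards. Only 8 of the 14 were bright. Meg3, the maternally expressed noncoding RNA of the Dlk1-Dio3 cluster, stood at 9.04 in the clone, 9.25 in line 1 and 9.61 in line 2, and missed the rule because the lines differed by 0.36. Rian stood at 7.42, 7.31 and 7.32, Mirg at 7.03, 7.05 and 6.99, and Dlk1 at 6.93, 6.45 and 6.78. The other Rian probe sets had line 2 above the clone, at 7.21, 7.03 and 7.23 for the brightest. Xist stood at 9.0, 8.93 and 8.98, Tsix at 5.55, 5.13 and 5.53, Jpx at 8.5, 8.56 and 8.42 and Ftx at 5.23, 5.09 and 4.92. The other Xist probe sets were below the median level, at 5.54, 5.59 and 6.06 and at 4.72, 4.81 and 4.7. Of Y-linked genes, Uty stood at 6.59 in the clone against 5.87 and 5.84 in the lines, below the median level on all 3 arrays. Its other probe sets, also below that level, stood at 5.61, 4.97 and 5.46, at 3.60, 3.33 and 3.57, and at 4.45, 4.39 and 4.58. Eif2s3y separated the lines, at 7.08 in line 1 and 8.18 in line 2 around 7.92 in the clone. Kdm5d stood at 6.30, 6.09 and 6.14. Usp9y stood at 6.32, 6.25 and 6.27, Sry at 7.08 and 7.01 in each line, and Zfy2 at 4.71, 4.77 and 4.87.

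Among targets of p53 and genes of DNA repair, more met the rule upwards than downwards, by small amounts. Of 19 p53 targets 11 met the rule upwards and 2 downwards, with medians of 0.113 in line 1, 0.102 in line 2 and 0.387 in line 3, and of 0.0775 over lines 1 and 2 after quantile normalization. Cdkn1a, the p21 inhibitor of the cell cycle, stood at 9.98 in the clone, 10.31 in line 1 and 10.39 in line 2, and Trp53inp1 at 10.39, 10.74 and 10.83. The other probe set of Trp53inp1 had line 2 below the clone, at 7.86, 8.14 and 7.73. Of 23 DNA repair genes 11 met the rule upwards and 2 downwards, with a median over both lines of 0.0643, which was 0.0181 after quantile normalization. Brca2 stood at 10.92, 11.15 and 11.20. The median level was 9.71 for the p53 list and 9.4 for the repair list. Of all genes at level 8 to 10, 31.1% met the rule upwards and 13.0% downwards. Their median difference was 0.0389 in line 1 and 0.0463 in line 2.

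By the rule, markers of other cells that the cultures could hold did not move together in both lines. Of 10 fibroblast markers, which the feeders and the tail-tip donor cells share, 2 met the rule upwards and 2 downwards, and 9 were above the median level on all 3 arrays. Their summed linear level was 1.05 times that of the clone in line 1, 1.14 times in line 2 and 0.98 times in line 3. The fibrillar collagens were higher mainly in line 2, with Col1a1 at 9.87, 9.95 and 10.18, Col1a2 at 10.80, 10.81 and 11.11, and Col3a1 at 9.44, 9.48 and 9.89. Thy1, Lum and S100a4 were below the clone in line 2. The wider fibroblast and feeder list had a median difference of 0.00752 in line 1 and 0.118 in line 2. Tagln, an actin-binding gene of contractile fibroblasts, stood at 9.82 in the clone, 10.22 in line 1 and 10.23 in line 2, and at 9.40 in line 3. Ccn2 stood at 10.01, 10.33 and 10.41. The part of feeder cells in these values was not tested, and in bulk RNA fewer cells of a type and less RNA per cell cannot be told apart. All 6 primitive endoderm markers were below the median level on all 3 arrays.

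**Figure D5:**
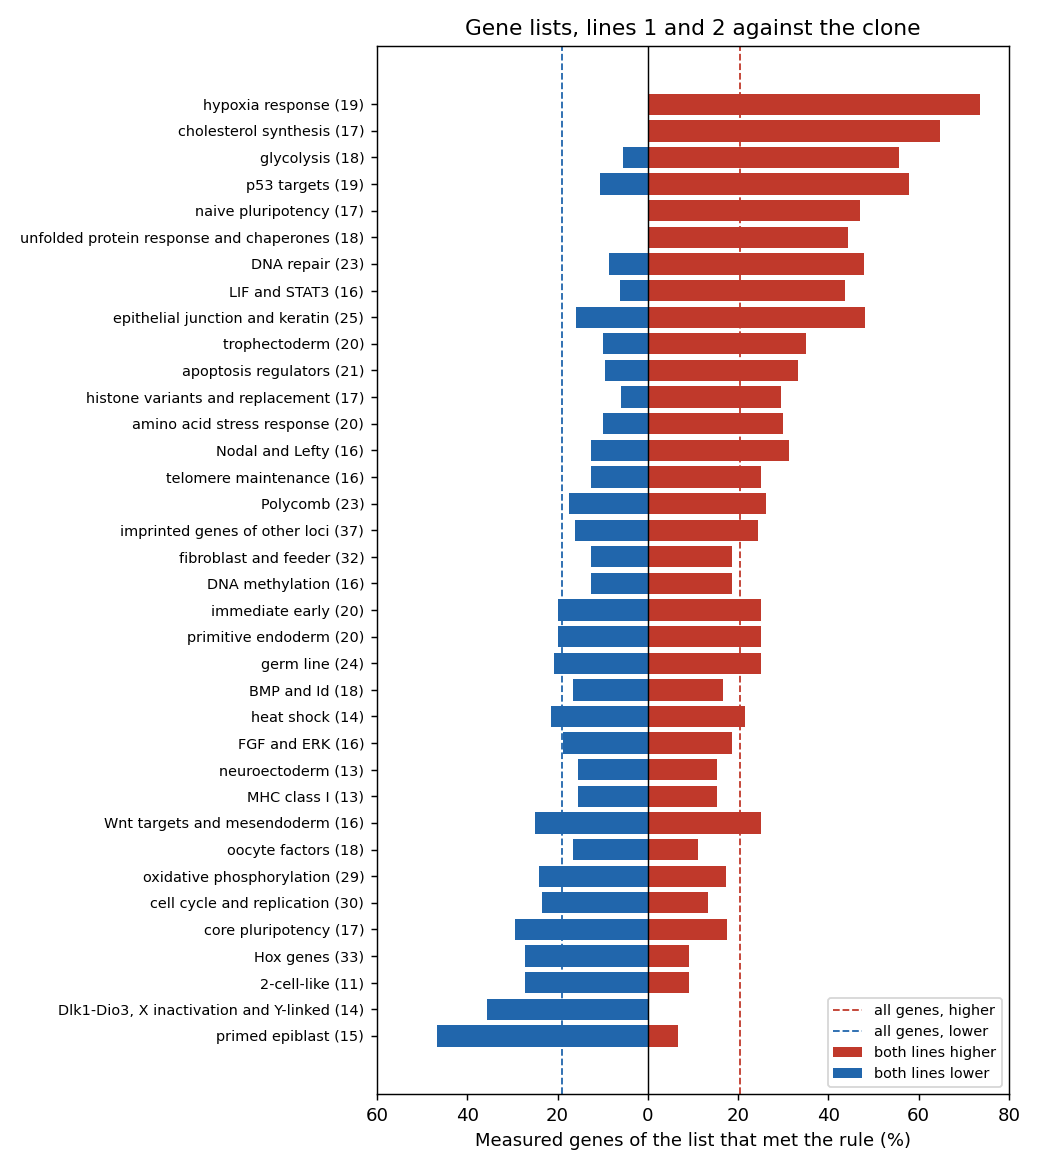
Share of the measured genes of each of 36 lists (number measured in parentheses) for which both lines met the rule above (red, to the right) or below (blue, to the left) the clone, in percent; dashed lines are the shares over all genes, 20.5% and 18.9%. Hypoxia response is at the top with 14 of 19 genes higher and 0 lower, and primed epiblast at the bottom with 1 of 15 higher and 7 lower.

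Members were spread over the chromosomes. Over the 20 chromosomes with at least 100 measured genes, the share of genes above the clone ran from 16.4% on chromosome 13 to 23.2% on chromosome 12, and the share below from 15.4% on chromosome 12 to 21.6% on the X chromosome. For chromosome 8 the shares were 20.1% and 18.3% of 932 genes, with a median difference of -0.00262 over lines 1 and 2. RNA quality controls differed in size between arrays. The 3′ minus 5′ difference for Actb was 0.22 in the clone, 0.28 in line 1 and 0.42 in line 2, and that of Gapdh was -0.07, -0.06 and 0.03. The part of these array differences in the values above was not tested.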

How the data were processed

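Messenger RNA of 1 iPSC clone and 3 NT-ESC lines was measured on 1 Affymetrix mouse array each. Per the labels' protocols, biotinylated cRNA was made from total RNA; no source used here names the normalization software. The authors deposited log2 values with 3 decimals whose ratios (2 raised to the value) average 1 on each array and run from 0.422 to 2.03. These were converted to ratios and multiplied by an assumed mean log2 intensity of 7. Of 45101 probe sets, 64 were controls, 34945 named 1 gene, 932 several and 9160 none; gene IDs of 34741 were found in RefSeq (GRCm38.p6). Each of 18193 genes was represented by its brightest probe set on average across the 3 arrays. Lines 1 and 2 were tested against the clone by a two-sided moderated test in limma (version 3.58.1, functions lmFit and eBayes, under R 4.3.3; threshold 0.05 on the Benjamini-Hochberg adjusted p), and the fit was tested on simulated data. The number of arrays limits the precision.

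Genes named are the 15 bright genes with the largest gap to the nearer line in each direction, up to 3 bright genes of each list by that gap, 7 pluripotency genes and the Dlk1-Dio3, X and Y list; other list members and the genes at the limit of the rule were chosen after their values were seen. The members and all 36 lists were chosen with earlier results of these data known. Of the 137 named genes, 106 had a promoter entry in the RefSeq table. Alternatives were keeping line 3, the mean of probe sets, deposited values without conversion, quantile normalization, other assumed means, dim genes left out, a stricter rule, a variance trend in limma, and each line alone.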

Additional observations from a re-analysis of the deposited data

Results flagged for a closer look

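Probe sets without a single gene in the annotation were not used in the comparison, and 3 of the 3093 bright ones were at least 1.5-fold apart from the clone in both lines, all higher, beside 0 lower. Probe set 1440461_at stood at 6.02 in the clone, 6.94 in line 1 and 6.86 in line 2, probe set 1436737_a_at at 6.37, 7.08 and 7.18, and probe set 1435789_x_at at 10.92, 11.76 and 11.55. Probe sets 1440461_at and 1436737_a_at were under the median level of 6.83 in the clone. In line 3 they stood at 6.60, 6.81 and 10.69.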

How the results depend on the processing

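Limma called 0 genes under each of the 6 alternatives run for it, with a smallest Benjamini-Hochberg adjusted p from 0.484 (dim genes left out) to 0.856 (line 3 kept); at an unadjusted p under 0.05, 629 to 1110 genes were higher and 271 to 658 lower. With line 3 kept, 1318 genes met the rule upwards, 1383 downwards, and 2 were 1.5-fold apart from the clone in all lines. With the gap required to exceed 2 times the gap between the lines, the counts were 2481 and 2203, and without dim genes 3059 met it upwards and 1882 downwards (61.9% upwards, against 52% with them). The count of genes 1.5-fold apart, 7, was 3 with an assumed mean of 6, 19 with the mean at the 16-bit limit and 0 with deposited values as given. With only 1 line, which leaves no spread and no test, 8759 to 9202 genes lay above and 8652 to 9120 below the clone, and 18 (line 2) to 56 (line 1) were 1.5-fold apart. Quantile normalization reversed none of the 137 named genes. With line 3 kept, the differences of Apoe (-0.0373), Lrp2 (0.0202) and Tapbp (-0.0513) reversed, and with the mean of probe sets those of Axin2 (-0.0073), Dnajb4 (-0.0111), Mbd1 (-0.0215), Sdhc (0.0127) and Tapbp (-0.0178); for Lrp2 with line 3 another probe set (7.26 in the clone, 7.28 and 7.24 in lines 1 and 2) became the brightest, and for the others the cause was not tested. No paired analysis was possible because the clone has 1 array and shares only 1 replicate number with the lines. The files give no background signal, so precision at low levels is not known.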

Other observations

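Chromatin and telomere genes, which belong to no comparison above, also held bright genes that met the rule. Among all bright genes, 25.7% met it upwards and 16.3% downwards. Macroh2a1, a histone variant of silent chromatin, stood at 10.62 in the clone and was higher by 0.38 in line 1 and 0.34 in line 2. Atrx, an X-linked chromatin remodeller, stood at 10.72, 11.26 and 11.05, while of its 6 other bright probe sets 3 had both lines above the clone and 3 did not. Suz12, a subunit of Polycomb repressive complex 2, stood at 10.58, 10.90 and 10.84, but of 5 other bright probe sets 2 had both lines above the clone, 1 had both below (8.59, 8.48 and 8.28) and 2 had line 2 below. Pcgf2, of the other Polycomb complex, stood at 8.69, 8.43 and 8.45. Terf2, which protects chromosome ends, stood at 8.15, 8.58 and 8.51. Of 23 Polycomb genes 6 met the rule upwards and 4 downwards, and of 16 telomere genes 4 and 2. The shares over all genes were 20.5% upwards and 18.9% downwards for the rule. Of the germ line genes, 6 of 24 met it upwards and 5 downwards: Ddx4, a germ cell helicase, stood at 8.70, 9.08 and 9.0, and Tex19.1 at 11.07, 10.61 and 10.78. Of 33 Hox genes 3 met the rule upwards and 9 downwards, but only 10 of the 33 were bright. The median level of the Hox list was 6.13. Downwards the rule was met by 24.6% of all genes under level 6 and by 21.9% from 6 to 8.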
